A study of Rattus norvegicus with 35 samples.

Results

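The genes described here are 10 lymphocyte receptor, signalling and chemokine genes in rat mammary tissue. They are Cd3d, Cd3e, Cd3g, Cd2 and Lck of T cells, Cd79b of B cells, Cd37, Ptprc and Ptprcap, which are shared among lymphocytes or among leukocytes, and the chemokine Ccl5. They were taken from the array by symbol: the platform annotation names 11 probe sets for them among the 15866 probe sets tested, 10 genes among 10411. Ptprc alone is read by more than 1 probe set. The study measured 24 mammary tumours induced with the alkylating carcinogen N-methyl-N-nitrosourea (NMU) and 11 normal mammary glands of the rat, each on an RAE230A oligonucleotide array. The tumour titles begin with X. Of the glands, 8 are titled NewN, and the others X27.1N, X28.1N and Young. The labels call the tumours frozen and give no strain, age, carcinogen dose or time for either group, and they do not say whether each sample came from a separate animal, so p-values measure the spread between these samples only.

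T cells recognise antigen through a receptor that signals by way of the CD3 chains, encoded by Cd3d, Cd3e and Cd3g, on which the kinase Lck acts first. B cells signal through a pair of chains that flank their surface immunoglobulin, 1 of which is encoded by Cd79b. The phosphatase CD45, encoded by Ptprc, removes an inhibitory phosphate from Lck and its relatives in leukocytes, and Ptprcap encodes a small membrane protein bound to it. In the mammary gland lymphocytes lie in the epithelium and stroma, and lymph nodes lie within the fat pads of rodents. The arrays read whole tissue, so fewer cells of a type and less RNA per cell cannot be told apart.

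The genes Cd3g, Cd3d and Cd3e lie next to each other on chromosome 8 in the RefSeq annotation of assembly GRCr8, and Cd3g and Cd3d face away from each other. Their promoters are shown because the CD3 chains work in a single complex, and that of Ptprc because it is the receptor common to all leukocytes. Each sequence covers 250 bases before and 50 bases after an annotated start, from RefSeq, and is written 5′ to 3′ on the strand of the gene. The positions are chr8:54183869-54184168 on the minus strand for Cd3g, chr8:54185269-54185568 on the plus strand for Cd3d, chr8:54211721-54212020 on the minus strand for Cd3e and chr13:52259697-52259996 on the minus strand for Ptprc. Capitals mark AGGAAG or its reverse complement CTTCCT, the core bound by ETS family factors.
Cd3g: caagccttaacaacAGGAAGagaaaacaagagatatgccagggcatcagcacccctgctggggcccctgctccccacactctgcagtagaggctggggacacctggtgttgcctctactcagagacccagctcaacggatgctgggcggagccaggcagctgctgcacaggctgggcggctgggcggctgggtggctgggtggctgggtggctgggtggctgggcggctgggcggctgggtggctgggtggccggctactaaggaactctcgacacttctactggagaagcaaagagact
Cd3d: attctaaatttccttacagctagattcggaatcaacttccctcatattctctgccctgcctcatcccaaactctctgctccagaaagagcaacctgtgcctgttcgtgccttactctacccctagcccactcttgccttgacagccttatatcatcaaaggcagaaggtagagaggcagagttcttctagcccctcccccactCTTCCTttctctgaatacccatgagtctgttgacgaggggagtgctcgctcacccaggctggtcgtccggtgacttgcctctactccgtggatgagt
Cd3e: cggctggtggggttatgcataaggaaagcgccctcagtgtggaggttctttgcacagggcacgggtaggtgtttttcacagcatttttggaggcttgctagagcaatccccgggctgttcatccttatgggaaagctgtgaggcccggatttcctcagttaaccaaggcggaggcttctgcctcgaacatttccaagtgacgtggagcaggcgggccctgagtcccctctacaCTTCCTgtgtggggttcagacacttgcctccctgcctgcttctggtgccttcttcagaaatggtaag
Ptprc: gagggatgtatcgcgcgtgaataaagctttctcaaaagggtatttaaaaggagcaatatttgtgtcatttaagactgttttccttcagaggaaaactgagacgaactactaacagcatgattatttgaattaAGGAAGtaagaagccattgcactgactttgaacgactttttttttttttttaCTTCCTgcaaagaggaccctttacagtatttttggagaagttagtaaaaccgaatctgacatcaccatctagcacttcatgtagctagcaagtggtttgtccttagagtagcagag
The RefSeq promoter table held 8 promoters for 7 of the genes, with more than 1 for Lck, and none for Cd79b, Ptprcap or Ccl5. The ETS core occurred in 7 of these 8 promoters, all but that of Cd2, and in 34.5% of all 33469 promoters of the same length, on either strand. The RUNX core TGTGGT, with its complement ACCACA, occurred in the promoter of Cd2 and in a promoter of Lck, and in 17.3% of all promoters. The octamer ATGCAAAT, with its complement ATTTGCAT, occurred in 0 of the 8 and in 1.78% of all promoters. A match describes these letters and does not show that a factor binds there.

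Array medians lay between 158 and 176 on all 35 arrays and no 2 arrays correlated by more than 0.987. The 3′ to 5′ signal ratio of the Gapdh controls, a measure of RNA quality, ranged from 0.884 to 1.23 in tumours and from 0.963 to 1.39 in glands. The 90th percentile of signal ranged from 491 to 678 in tumours and from 639 to 763 in glands. At the low end, the 10th percentile ranged from 39.1 to 48.3 in tumours and from 33.4 to 42.3 in glands. The part of these differences in the results was not tested. Precision is limited by the number of arrays. The tumour X22L stood apart, with the lowest summed signal of 12 luminal epithelial genes among all arrays, 1673, against 5315 to 15068 in glands, and the highest summed signal of 9 fibroblast genes among tumours, 45609, against 22381 to 51651 in glands. Results that depend on X22L are given with and without it.

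Signals are on the linear scale of the deposited table. A floor of 41.6, the 10th percentile over the whole table, replaced lower values before log2 was taken, and values below it have no order. Differences are tumour minus gland in mean log2, tested with limma, and a probe set was called where its p, adjusted over all 15866 probe sets by the Benjamini-Hochberg method, was under 0.05.

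In 3 normal glands, NewN4, NewN6 and X27.1N, most of these genes had signals far above those of every other sample, tumours included. NewN4, NewN6 and X27.1N had Cd79b signals of 809, 1111 and 1013. Cd79b reached at most 42.9 in the 8 other glands, where 7 lay at the floor. These 3 glands are the ones with a Cd79b signal of 400 or more, and tumours were therefore also set against the 8 others. Summed over the 10 genes, the signal was 878 (X32) to 2227 (X22L) in tumours. NewN4, NewN6 and X27.1N had sums of 7298, 12994 and 8138, and the 8 other glands had 1163 to 1623. The highest tumour thus lay above those 8 glands and below each of the 3.

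The size of the excess in these 3 glands differed between the genes. Relative to the median of the 8 other glands, Ptprcap was 15.5-fold (NewN4) to 27.5-fold (NewN6) higher. Cd3g was 14.2-fold (NewN4) to 26.03-fold (NewN6) higher. Lck was 6.98-fold to 12.2-fold higher, Cd37 6.07-fold to 11.4-fold, Ptprc 5.25-fold to 9.99-fold and Cd3e 3.87-fold to 7.22-fold. At the other end, Cd2 was 1.23-fold to 1.89-fold higher and Ccl5 1.07-fold to 2.20-fold. The median of Cd3d and of Cd79b in the 8 glands lay at the floor, so their folds are bounds: Cd3d was at least 14.2-fold higher in NewN4 and Cd79b at least 19.4-fold. NewN6 was the highest of the 3 glands for each of the 11 probe sets, at 1.37 (Cd79b) to 2.05 (Ccl5) times the signal of NewN4.

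**Figure D1:**
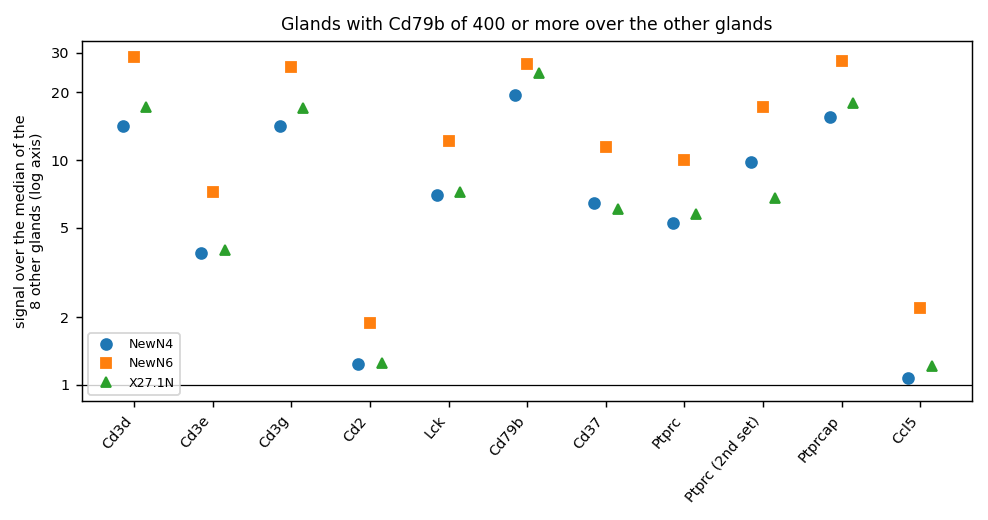
Signal of each probe set in the glands NewN4, NewN6 and X27.1N over the median of the 8 other glands, on a log axis; each marker is 1 gland, and Cd3d and Cd79b are drawn over the floor signal of 41.6 because that median lies below it. Cd2 and Ccl5 lie lowest, and NewN6 lies highest for every probe set.

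All 10411 genes were ranked by how far the lowest of these 3 glands exceeded the highest of the 8 others in log2 signal. Cd79b ranked 1 with a gap of 4.24, a rank that follows from its use in choosing the glands. Cd3d ranked 3 with a gap of at least 3.83, a bound because all 8 others lay at the floor, followed by Ptprcap at 5 (3.6), Cd3g 6 (3.56), Cd37 13 (2.34), Lck 14 (2.29), Ptprc 22 (1.78) and Cd3e 26 (1.62). Cd2 and Ccl5 had no such gap, with differences of -0.22 and -0.18. Because Cd79b chose the glands, and these genes were chosen with earlier results of these data known, the ranks describe the split and test nothing. The 5 other genes with the widest gaps were Glycam1, Ighl2, Tcf7, Rac2 and Coro1a. Glycam1, a mucin-like ligand of L-selectin made by the high endothelial venules of lymph nodes and also by the milk-producing gland, had a signal of 4261, 3649 and 3764 in NewN4, NewN6 and X27.1N and at most 207 in the 8 others. Tcf7, a transcription factor of T cells, had 695, 1405 and 659 in the 3 glands and at most 83.5 in the 8 others.

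Some markers of other cell types also differed in these 3 glands. The summed signal of 10 genes of lymphoid stroma and homing was 2213 to 6935 in tumours, 8662 to 9407 in the 3 glands and 2944 to 4641 in the 8 others. Without Glycam1 the sum of the other 9 was 1999 to 6834 in tumours, 4401 to 5757 in the 3 glands and 2737 to 4450 in the 8 others. By gene, Cxcl13, Cxcr5, Cxcr4, Glycam1 and Vcam1 were above all 8 others in each of the 3 glands, 5 of 10. That of 10 adipocyte genes was 537 to 5266 in tumours, 12913 to 21467 in the 3 glands and 26690 to 35651 in the 8 others, lowest in tumours and highest in those 8. For 9 fibroblast genes the sum was 22381 to 25914 in the 3 glands and 28358 to 51651 in the 8 others. In tumours it was 674 to 45609. For 9 mast cell genes the sum was 1798 to 2117 in the 3 glands and 2219 to 3219 in the 8 others. In tumours it was 796 to 4008. That of 9 macrophage genes was 3322 to 16317 in tumours, 11959 to 12585 in the 3 glands and 7361 to 9808 in the 8 others. Lyz2 made most of that difference: without it the sum was 2593 to 10672 in tumours, 6995 to 7851 in the 3 glands and 5882 to 7781 in the 8 others, and only Lyz2 and Cd68 were above all 8 others in each of the 3 glands. The ranking of all 10411 genes bounds how common such a gap was. Ccl5 ranked 2155 there at -0.18, so fewer than 2155 genes had all 3 glands above the 8 others. Among these lists, Lep lay at the floor in every tumour and no gene lay at the floor in every gland. Their part in the results was not tested.

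**Figure D2:**
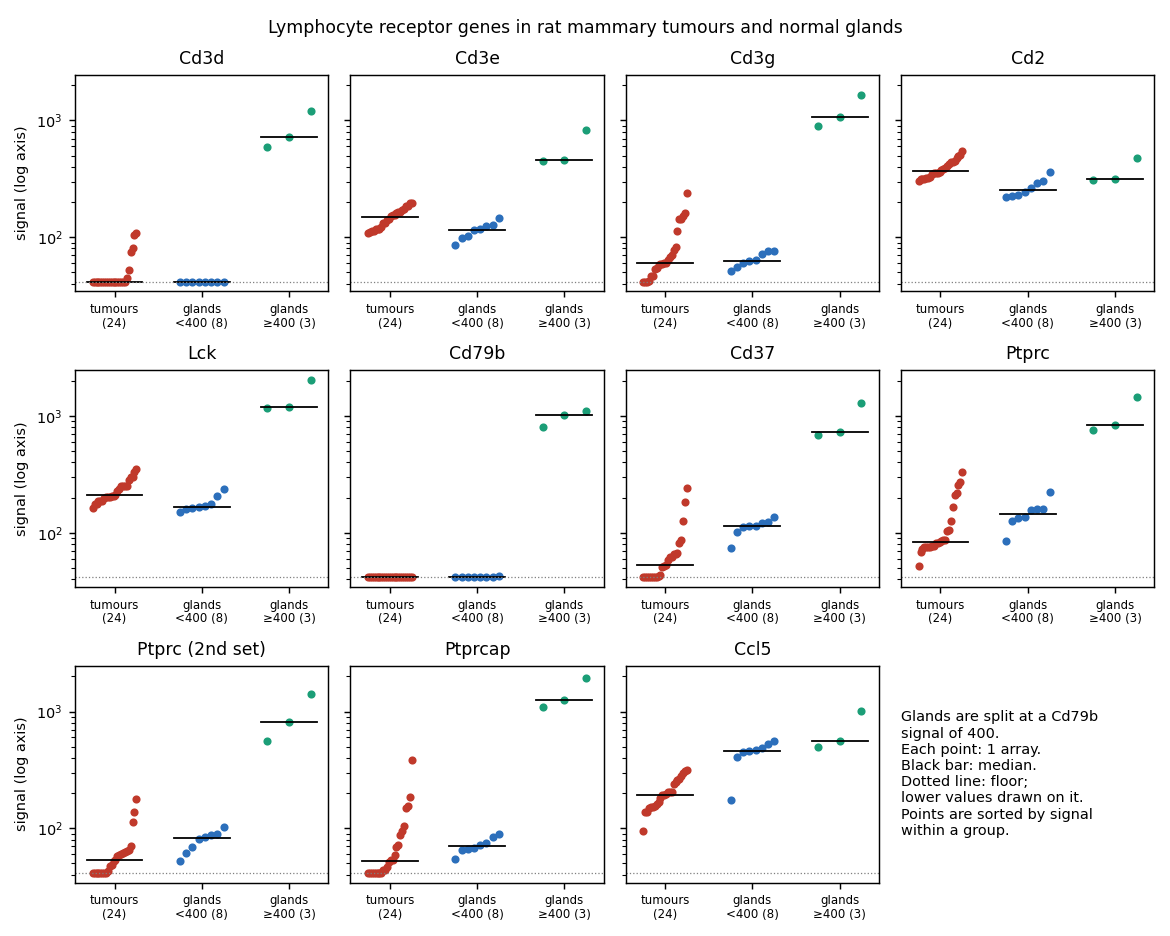
Signal of each of the 11 probe sets on a log axis, with 1 point per array, in 24 tumours, 8 glands with Cd79b under 400 and 3 glands with Cd79b of 400 or more; black bars are medians and the dotted line is the floor of 41.6, on which lower values are drawn. The 3 glands lie above all tumours for every probe set except Cd2, where tumours reach 544, and the spread among tumours is wide for Ptprcap, from the floor to 381.

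Against all 11 glands, 7 of the 11 probe sets were lower in tumours, 1 was higher and 3 were not called, where 25.2% of all probe sets were called lower and 33.0% higher. By gene, 6 of 10 were lower and 1 was higher, where 27.5% of all genes were called lower and 31.4% higher. The median log2 difference was -1.08 over the 10 genes and 0.02 over all genes. With only the 8 glands of low Cd79b signal, 3 of 10 probe sets were higher, 2 were lower and 5 were not called, where 31.6% of all probe sets were called higher and 24% lower. By gene, 3 of 9 were higher and 2 lower, where 30.5% of all genes were called higher and 26% lower. The median was then 0.17 over the 9 genes and 0.04 over all genes. Without the tumour X22L, 8 probe sets were lower and 1 higher against all 11 glands, and 3 were lower and 3 higher against the 8. The shares of all probe sets lower and higher without X22L are not given, so these counts have no background beside them. Cd79b itself was left out of the comparison with the 8 glands, since its own signal chose them. Leaving out glands by a lymphocyte gene lowers the gland mean of every gene that is high in them, so the second comparison stands beside the first as an alternative and its direction is not independent of that choice.

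Among the CD3 chains, Cd3d (probe set 1387472_at) lay at the floor in 18 of 24 tumours. The highest tumours were X26 at 108, X15 at 105 and X8 at 80.1. All 8 glands with low Cd79b lay at the floor, with a highest signal of 36.0, while NewN4, NewN6 and X27.1N had 590, 1196 and 718. Every tumour therefore lay below those 3 glands and 6 tumours lay above the 8 others. Cd3d was lower in tumours against all 11 glands, with a log2 difference of -0.96 (SE 0.404, adjusted p = 0.0416). The call was lost without any 1 of the 3 glands. Without NewN6 the difference was -0.59 (adjusted p = 0.147), without NewN4 -0.69 (adjusted p = 0.127) and without X27.1N -0.66 (adjusted p = 0.131). It was also lost with array weights, which lower the influence of arrays far from their group (-0.33, adjusted p = 0.359). The floor at the 5th percentile (adjusted p = 0.0894) and 1 tumour per title number (adjusted p = 0.0558) lost the call too. So did the use of the NewN glands alone (adjusted p = 0.0642) or of X27.1N, X28.1N and Young alone (adjusted p = 0.0824). Against the 8 glands it was 0.21 (SE 0.149) and was not called (adjusted p = 0.247).

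Cd3g (1384787_at) ranged in tumours from 31.3 (X29.1) to 241 (X15), with a median of 60.1. The 8 glands ranged from 51.8 to 75.8 with a median of 63.0, and NewN4, NewN6 and X27.1N had 894, 1639 and 1077. Tumours spread to both sides of the 8 glands, 6 below all of them and 8 above all of them. The difference against all 11 glands was -0.97 (SE 0.433) and missed the threshold (adjusted p = 0.0524). It stood at -1.02 and passed without the tumour X22L (adjusted p = 0.0428), and it also passed without any 1 of 5 other tumours or of the 8 glands, the lowest adjusted p being 0.0302, without Young. Without NewN6 it was -0.62 (adjusted p = 0.175), without X27.1N -0.68 (adjusted p = 0.155) and without NewN4 -0.71 (adjusted p = 0.151). Set against the 8 glands, Cd3g differed by 0.17 (SE 0.251, adjusted p = 0.6).

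Cd3e (1389997_at) had a narrower range, from 109 (X9) to 196 (X4) in tumours with a median of 148. The 8 glands ranged from 85.1 to 146 with a median of 116, and the 3 others had 449, 837 and 462. The upper 12 tumours lay above all 8 glands and the other 12 within their range. Against all 11 glands the difference was -0.28 (SE 0.230, adjusted p = 0.311), and it was -0.05 without NewN6 (adjusted p = 0.853) and -0.14 without NewN4 or X27.1N (adjusted p = 0.623 and 0.629). Against the 8 glands Cd3e was higher in tumours by 0.35 (SE 0.111, adjusted p = 0.00761).

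Lck (1383320_at), the kinase that phosphorylates the CD3 chains, ranged from 164 (X32) to 351 (X15) in tumours with a median of 209. In the 8 glands it ranged from 151 to 239 with a median of 167, and NewN4, NewN6 and X27.1N had 1167, 2039 and 1202. In 9 tumours Lck lay above all 8 glands and in none below them. Lck was higher in tumours against these 8 glands by 0.35 (SE 0.114, adjusted p = 0.00924), and differed by -0.47 (SE 0.289, adjusted p = 0.167) against all 11. The value against all 11 was -0.20 without NewN6 (adjusted p = 0.518), -0.28 without NewN4 and -0.27 without X27.1N (adjusted p = 0.411 for each).

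Cd2 (1369190_at), an adhesion receptor of T and NK cells, was the only 1 of these genes called higher against both sets of glands. It averaged 389 ± 69.1 (SD, n = 24) in tumours, from 300 (X6) to 544 (X26), and 295 ± 75.2 (SD, n = 11) in glands. The 8 glands ranged from 222 to 362, and NewN4, NewN6 and X27.1N had 311, 477 and 316, so that 4 tumours lay above every gland and 12 above every gland of the 8. Cd2 was higher by 0.42 against all 11 glands (SE 0.0998, adjusted p = 0.000596) and by 0.54 against the 8 (SE 0.101, adjusted p = 3.8e-05). Against X27.1N, X28.1N and Young alone it differed by 0.30 and was not called (adjusted p = 0.184).

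Cd79b (1387749_at), the B cell receptor chain, lay at the floor in all 24 tumours, with a highest signal of 30.1 in X25L. Of the glands, 7 of 11 also lay at the floor, and those above it were NewN4, NewN6, X27.1N and, just above, NewN3 at 42.9. Cd79b was lower in tumours on the floored log2 scale, with a difference of -1.24 against all 11 glands (SE 0.406, adjusted p = 0.00909). The size depends on the floor: it was -1.51 (adjusted p = 0.00525) with the floor at the 5th percentile and -1.04 (adjusted p = 0.014) at the 20th, so no fold is given. With array weights the call was lost (-0.56, adjusted p = 0.124).

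Cd37 (1368555_at), a tetraspanin abundant on B cells and present on other leukocytes, was lower in tumours against both sets of glands. It ranged from 33.5 (X29.2) to 242 (X22L) in tumours with a median of 52.4. The 8 glands ranged from 73.6 (Young) to 137 (NewN2) with a median of 114, and NewN4, NewN6 and X27.1N had 731, 1299 and 690. In 19 tumours Cd37 lay below every gland, and X22L and X15 lay above all 8 glands of low Cd79b. The difference was -1.68 against all 11 glands (SE 0.341, adjusted p = 8.35e-05) and -0.87 against the 8 (SE 0.243, adjusted p = 0.00304).

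Ptprc, which encodes CD45, was lower in tumours against all 11 glands by both of its probe sets. The brighter one (1390798_at) ranged from 52.1 (X29.2) to 332 (X22L) in tumours with a median of 83.7. In the 8 glands it ranged from 85.6 (NewN2) to 222 (Young) with a median of 145, and in NewN4, NewN6 and X27.1N it had 762, 1451 and 840. In 13 tumours it lay below every gland, and in X22L, X26 and X15 above all 8 glands. The differences were -1.18 for this set (SE 0.338, adjusted p = 0.00314) and -1.38 for 1370603_a_at (SE 0.363, adjusted p = 0.0015) against all 11 glands. Against the 8 glands they were -0.43 for each, and neither was called (adjusted p = 0.171 and 0.0744). The second set was called there without X22L (-0.50, adjusted p = 0.0122), and also without X15 (-0.48, adjusted p = 0.0278), X27 (-0.47, adjusted p = 0.0409) or the gland Young (-0.50, adjusted p = 0.044). It was called there too with quantile normalization (-0.55, adjusted p = 0.0239), with array weights (-0.58, adjusted p = 0.000498) and against the NewN glands among the 8 (-0.57, adjusted p = 0.0327), and the brighter set with array weights (-0.44, adjusted p = 0.041). Against X27.1N, X28.1N and Young alone, 1370603_a_at was not called (-1.09, adjusted p = 0.0942), while the brighter set was still called lower.

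Ptprcap (1372852_at) had the widest range among tumours on the floored log2 scale (SD 0.87), with 8 tumours at the floor and X22L at 381, X15 at 186 and X8 at 154. The tumour median was 52.1, against 70.0 in the 8 glands, which ranged from 54.2 to 89.5. NewN4, NewN6 and X27.1N had 1088, 1926 and 1260. Tumours lay on both sides of the 8 glands, 14 below all of them and 6 above all of them. Ptprcap was lower against all 11 glands, with a difference of -1.27 (SE 0.462, adjusted p = 0.0183), and the call was lost without NewN6 (-0.91, adjusted p = 0.0636), NewN4 (-0.99, adjusted p = 0.0579) or X27.1N (-0.97, adjusted p = 0.0576). It was also lost with array weights (-0.70, adjusted p = 0.0778), with the floor at the 20th percentile (-0.94, adjusted p = 0.071) and against X27.1N, X28.1N and Young alone (-1.54, adjusted p = 0.0897). Against the 8 glands it differed by -0.10 (SE 0.300, adjusted p = 0.807).

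Ccl5 (1369983_at), a chemokine that draws T cells and monocytes and is made by activated T cells among other cells, was lower in tumours by like amounts against both sets of glands. It averaged 204 ± 60.4 (SD, n = 24) in tumours, from 95.2 (X32) to 316 (X22L), and 510 ± 199 (SD, n = 11) in glands. Apart from Young at 174, every gland had 408 (X28.1N) or more, above all 24 tumours. In 9 tumours Ccl5 lay below Young too. The difference was -1.28 against all 11 glands (SE 0.171, adjusted p = 1.09e-07) and -1.11 against the 8 (SE 0.180, adjusted p = 5.25e-06). Leaving out any 1 gland gave -1.43 to -1.17 against all 11.

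**Figure D3:**
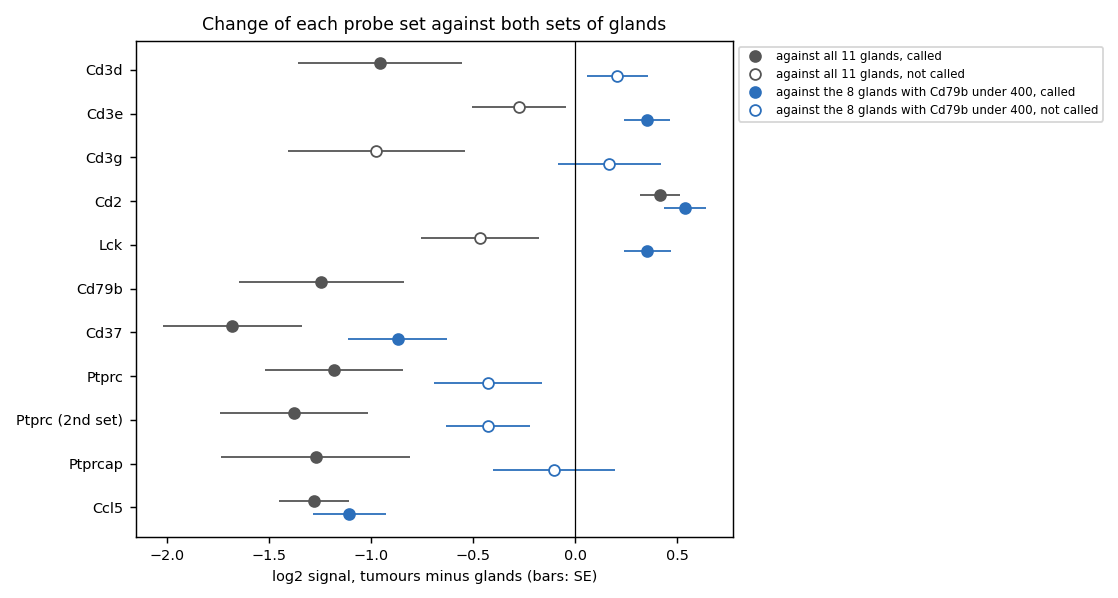
Difference in mean log2 signal, tumours minus glands, for each probe set (points, with SE as bars), against all 11 glands (grey) and against the 8 glands with Cd79b under 400 (blue); filled points passed an adjusted p of 0.05 and Cd79b has no value against the 8 glands. Cd3d, Cd3e, Cd3g and Lck lie left of 0 in grey and right of it in blue, while Cd37 and Ccl5 lie left of 0 and Cd2 right of 0 in both.

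Across the 24 tumours the genes were related to each other over 45 pairs of 10 probe sets, leaving out Cd79b, which was at the floor throughout. Tumours whose titles share a number (X25L and X25R, X29.1 and X29.2) may not be independent, and all probe sets share each array's RNA and scaling. By Pearson correlation 35 pairs passed a Benjamini-Hochberg adjusted p of 0.05 from 100000 permutations, by Spearman 33, and by both 33. The share of pairs of other genes that would pass was not measured, so these counts have no background beside them. The r of the 35 pairs ran from 0.46 to 0.89. Without the 2 tumours farthest from the median it ran from 0.25 to 0.86.

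Cd3g and Lck had the highest correlation, with r = 0.89 and rho = 0.82 (permutation p = 1e-05 for each, the smallest possible, adjusted 5.6e-05 and 0.00022), and r = 0.83 without X15 and X26. Cd3g and Ptprcap had r = 0.89 and rho = 0.85, and r = 0.86 without X15 and X26. Without X22L these values were 0.89 for Lck and 0.93 for Ptprcap. The tumours X15, X22L, X26, X27 and X8 were the 5 highest for Cd3g, for Lck and for Cd3d. The pair of Ptprc and Cd37 had r = 0.88 and rho = 0.82, and r = 0.82 without X15 and X22L. Both probe sets of Ptprc correlated with r = 0.71 and rho = 0.47, and with r = 0.46 without X15 and X22L.

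Cd2 did not share this pattern. It passed with Cd3e (r = 0.62, rho = 0.62, adjusted permutation p = 0.003 and 0.0046) and with Lck (r = 0.48, rho = 0.57, adjusted permutation p = 0.024 and 0.0081) of its 9 pairs. Its r was 0.17 with Cd3g, 0.27 with Cd3d and 0.06 with Ptprc. The highest tumours for Cd2 were X26 at 544, X18 at 503 and X19 at 492. Ccl5 passed in 7 of its 9 pairs, with r up to 0.62 (Lck). Whether the correlations of Cd2 differ from those of the other genes was not tested.

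**Figure D4:**
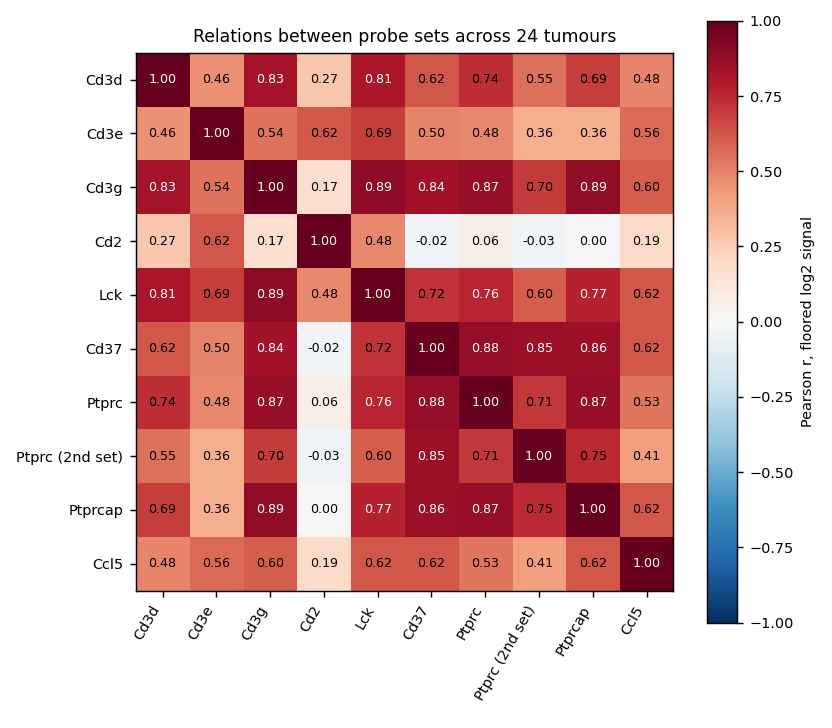
Pearson r between probe sets across 24 tumours on floored log2 values, printed in each cell and coloured from -1 (blue) to 1 (red). The row of Cd2 is pale except with Cd3e (0.62) and Lck (0.48), while Cd3g reaches 0.89 with Lck and Ptprcap.

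**Figure D5:**
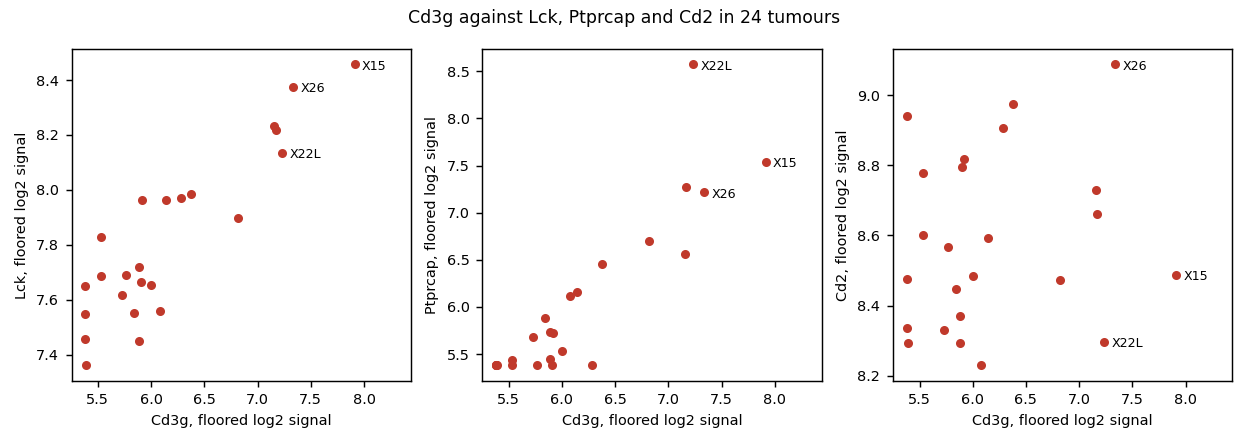
Floored log2 signal of Lck, Ptprcap and Cd2 against that of Cd3g, with 1 point per tumour for 24 tumours and X15, X22L and X26 named. X15 is the highest tumour for Cd3g, and in the Cd2 panel X15 and X22L lie in the lower part of the range.

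The tumours high for these genes also differed in markers of other cells. X22L had the highest summed signal of 9 macrophage genes, 16317, and X15 had 11457, against 7361 to 9808 in the 8 glands, while X8 had 8072, X27 8781 and X26 5897, and the tumour median was 5862. The sum of 9 fibroblast genes was 45609 in X22L, 19601 in X27, 17890 in X15, 5209 in X8 and 2935 in X26, and the tumour median was 5433. The mast cell sum was highest among tumours in X27, at 4008, and the tumour median was 1109. It was 1885 in X26, 1865 in X15 and 1109 in X8, and in X22L it was the lowest of all tumours, at 796. The adipocyte sum was highest among tumours in X15, at 5266. It was 2297 in X22L, 1293 in X27, 866 in X26 and 865 in X8, and the tumour median was 870. The part of these cells in the tumour pattern was not tested.

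The mean standardized level of the T cell genes Cd3d, Cd3e, Cd3g, Cd2 and Lck was set against 9552 other genes that lay above the floor in at least 18 tumours, over the 24 tumours, as a description. The 8 most like genes were Tnfrsf14 (r = 0.83), Cd5 (0.82), Tnfrsf4 (0.82), Pitpnm1 (0.80), Evi2b (0.77), Cd247 (0.76), Arhgap4 (0.75) and Il2rb (0.75). Among these Cd247 encodes the zeta chain of the T cell receptor complex, Cd5 a surface receptor that restrains its signal, Tnfrsf4 the costimulatory receptor OX40 and Il2rb a chain of the interleukin-2 receptor. Cd5 ranged from 51.0 to 112 (X15) in tumours and Tnfrsf4 from 74.4 to 209 (X15). Most like Ptprc were Cd53 (r = 0.91), Fermt3 (0.90) and Coro1a (0.88), and most like Cd37 were Il2rg (0.92), Arhgdib (0.91) and Laptm5 (0.91). Most like Ccl5 were Pstpip1 (0.70), Cd74 (0.70), the invariant chain of class II antigen presentation, and Il2rb (0.68).

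For the lists that follow, the shares of all 10411 genes called were 27.5% lower and 31.4% higher against all 11 glands, and 26% lower and 30.5% higher against the 8. Of 25 further genes of T cell receptor signalling, 13 were measured, and 5 were lower, 2 higher and 6 not called in tumours against all 11 glands (median -0.40). Against the 8 glands 2 were lower, 4 higher and 7 not called (median 0.04). Fyn, a relative of Lck, was lower in both (-0.98, adjusted p = 2.37e-06 and -0.85, adjusted p = 8.8e-05), while Lat, the adaptor that Zap70 phosphorylates, was higher in both (0.30, adjusted p = 0.0451 and 0.61, adjusted p = 1.77e-06). Il2rg, the shared cytokine receptor chain, was lower against all 11 glands (-1.14, adjusted p = 0.00672) and differed by -0.27 against the 8 (adjusted p = 0.369). Thy1, found on rat thymocytes and also on fibroblasts, differed by -0.71 (adjusted p = 0.162) and -0.83 (adjusted p = 0.163).

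Of 24 B cell genes 5 were measured, so that Cd79b had few companions. Against all 11 glands 3 were lower and none higher (median -0.34), and against the 8 glands 2 were lower (median -0.16). Those lower in both were Ebf1 (-2.20, adjusted p = 7.96e-14 and -2.42, adjusted p = 7.92e-14) and Cd55 (-1.99, adjusted p = 1.94e-05 and -2.04, adjusted p = 0.00015). Ebf1 also acts in the adipocyte lineage and Cd55, a complement regulator, is made by many cells. The kinase Lyn was lower against all 11 glands (-0.34, adjusted p = 0.0153) and differed by -0.16 against the 8 (adjusted p = 0.258), and Syk differed by -0.27 (adjusted p = 0.0512) and -0.02 (adjusted p = 0.876).

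Of 15 measured pan-leukocyte genes 6 were lower, 1 higher and 8 not called against all 11 glands (median -0.41), and 3 were lower and 1 higher against the 8 (median 0.06). Cd48, a ligand of CD2 in rodents, was lower in both comparisons (-1.64, adjusted p = 1.34e-06 and -1.49, adjusted p = 6.19e-05), unlike Cd2 itself. Laptm5 was also lower in both (-1.56, adjusted p = 3.97e-06 and -1.06, adjusted p = 0.000193). Of the 2 with the highest mean level, Arhgdib was lower in both (-1.09, adjusted p = 3.94e-05 and -0.61, adjusted p = 0.00173), and Lcp1, an actin-bundling protein, differed by -0.16 (adjusted p = 0.53) and 0.29 (adjusted p = 0.152). Of 12 measured genes of cytotoxic and NK cells none was lower, 5 were higher against all 11 glands (median 0.00) and 6 against the 8 (median 0.31). They included Gzmb, a granzyme (0.52, adjusted p = 0.000438 and 0.66, adjusted p = 4.82e-06), and Klrc1, an NK receptor (0.54, adjusted p = 0.000478 and 0.64, adjusted p = 0.000275). Gzmk, another granzyme, was higher in both (0.28, adjusted p = 0.0366 and 0.37, adjusted p = 0.0131), and Nkg7, a protein of cytotoxic granules, differed by -0.07 (adjusted p = 0.636) and 0.10 (adjusted p = 0.444). Over all genes 31.4% were called higher against all 11 glands and 30.5% against the 8.

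Of 10 measured receptors of Ccl5 and related chemokines, 2 were lower and 3 higher against all 11 glands (median 0.04), and 2 lower and 2 higher against the 8 (median 0.24). Ccr1, a receptor of Ccl5, was lower in both (-1.70, adjusted p = 1.09e-13 and -2.0, adjusted p = 9.25e-19). The chemokine Ccl4 was higher in both (0.56, adjusted p = 0.00376 and 0.82, adjusted p = 4.83e-05), in the direction opposite to Ccl5. The chemokines Cxcl9 (0.12, adjusted p = 0.845 and 0.35, adjusted p = 0.526) and Cxcl10 (-0.04, adjusted p = 0.917 and 0.24, adjusted p = 0.305), which bind the chemokine receptor Cxcr3, were not called. Of 10 measured genes of lymphoid stroma and homing, 2 were lower and 4 higher against all 11 glands (median 0.02), and 2 lower and 5 higher against the 8 (median 0.38). The adhesion molecule Vcam1 (-2.39, adjusted p = 1.76e-10 and -1.99, adjusted p = 4.93e-09) and the chemokine Cxcl12 (-0.89, adjusted p = 4.8e-06 and -0.92, adjusted p = 3.64e-05) were the lower ones in both. The B cell chemokine Cxcl13 differed by -0.86 (adjusted p = 0.0938) and -0.38 (adjusted p = 0.531).

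Over these 6 lists together, 18 of 65 genes were lower and 15 higher against all 11 glands (median -0.19, where 27.5% of all genes were lower and 31.4% higher), and 11 were lower and 18 higher against the 8 (median 0.14, where 26% of all genes were lower and 30.5% higher). Without X22L the counts were 24 lower and 14 higher against all 11 glands, and 14 lower and 19 higher against the 8. More was called over the whole array too: 9508 probe sets against all 11 glands, where 5239 higher and 3999 lower were called with X22L. The shares of all genes lower and higher without X22L are not given, so these counts have no background beside them. Each of the 9 receptor and chemokine genes with a value in both comparisons had a higher difference, or a smaller negative one, against the 8 glands. The direction of this shift is not independent of the choice of glands by a lymphocyte gene. Some list genes moved the other way, among them Ebf1 (-2.2 against all 11 glands and -2.42 against the 8) and Ccr1 (-1.7 and -2.0).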

How the data were processed

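Total RNA of 24 rat mammary tumours and 11 normal glands was measured on RAE230A arrays, per the labels, and samples were grouped by the label that names tumour or normal. The deposited values are linear intensities for 15923 probe sets per array. How the authors corrected background and scaled the arrays is not given in the sources used here. No value was below 1, and 3601 values equalled it. The 57 control probe sets were left out, the deposited scaling was kept, values were floored at the 10th percentile (41.6) and log2 was taken, with no filter on level.

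Symbols came from the platform annotation: 12783 probe sets carry 1 symbol, 312 several and 2771 none in the table used. Of the identifiers, 12748 matched the RefSeq table of GRCr8 and 0 symbols changed. Where several probe sets read a gene, counts of genes used the one of highest mean.

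Tumours were compared with all 11 glands, and with the 8 glands whose Cd79b signal was under 400, by limma 3.58.1 in R 4.3.3 (lmFit, eBayes with trend and robust estimation, no covariate), with Benjamini-Hochberg adjustment over 15866 probe sets and a threshold of 0.05. The procedure was tested on simulated data. Correlations used floored log2 values, two-sided permutations (100000) and scipy 1.17.1 in Python 3.11.15. Figures used matplotlib 3.10.9.

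The genes and lists were chosen with earlier results of these data known. From each list the text names the 2 genes of highest mean level and the 2 with the largest change among those called. Of the lists of other cells, only summed signals are given, with adipocytes, macrophages, fibroblasts, mast cells and luminal epithelium reported. Alternatives covered scaling, floor, dim probe sets, spread model, the glands and tumours used and title numbers. Those that use only NewN glands, or leave out Young, among the 8 glands, and that leave out NewN6 among the 11, and the sums without Glycam1 or Lyz2, were chosen after seeing the data.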

Additional observations from a re-analysis of the deposited data

How the results depend on the processing

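Without the 3 glands of high Cd79b signal, Cd3d (0.21), Cd3e (0.35), Cd3g (0.17) and Lck (0.35) had differences above 0, of which Cd3e and Lck were called and Cd3d (adjusted p = 0.247) and Cd3g (adjusted p = 0.6) were not, and the probe sets of the 10 genes called lower numbered 2 and higher 3, with 11 genes of the leukocyte lists lower. Against X27.1N, X28.1N and Young alone, 2658 of all probe sets were called, 4 of the 10 genes' probe sets lower and 0 higher, and 2 list genes higher. With array weights, which lower the influence of arrays far from their group, Cd3e (0.068) and Lck (0.01) were above 0 against all 11 glands and not called, and 4 probe sets were lower against either set of glands. With only the probe sets above the median level, fewer were tested: 4750 were called against all 11 glands, 1 of the 10 genes' probe sets lower and 4 list genes higher, and 4607 against the 8, with 1 lower, 6 list genes lower and 5 higher. With the floor at the 20th percentile, Ptprcap turned to 0.21 against the 8 glands; the cause was not tested.

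Leaving out 1 sample at a time gave 8689 to 9508 called probe sets against all 11 glands, 5 to 8 of the 10 genes' probe sets lower and 1 higher, 12 to 15 list genes higher and 17 to 24 lower. Against the 8 glands it gave 8039 to 9124, 2 to 3 lower, 3 higher, 17 to 19 list genes higher and 10 to 14 lower. Glands X27.1N and X28.1N share title numbers with tumours X27 and X28, but the labels do not say that a number marks an animal, and residuals correlated by 0.19 and 0.25. With the number as a replicate block in these 4 arrays, limma called 0 probe sets, 0 of the 10 genes' lower and 0 higher, and 0 list genes lower and 0 higher. At an unadjusted p under 0.05 it gave 2736 probe sets, 2 of them among the 10 genes' 11. With it as a random block over all arrays, Cd3g passed (adjusted p = 0.0474). The number of correlated pairs that passed was 34 to 37 under the alternatives, against 35.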
